A study of Mus musculus with 18 samples.

Results

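The genes examined here were 8 neuropilin, semaphorin and plexin genes, followed in 18 RNA-seq libraries of thymic iNKT cells, the invariant natural killer T cells of the mouse thymus. The list holds the neuropilins Nrp1 and Nrp2, the semaphorins Sema4a, Sema4b, Sema4d and Sema7a, and the plexins Plxnc1 and Plxnd1, which are 8 of the 23337 genes in the count table and 8 of the 31 neuropilin, semaphorin and plexin genes in it. They were chosen by symbol with differences in these same counts already known, so their levels and fold changes are given as a description, without p-values. The cells were the NKT1, NKT2 and NKT17 subsets of WT mice and of SKG mice, all on the BALB/c background, with 3 libraries in each of the 6 groups. SKG mice carry a hypomorphic point mutation of Zap70, the kinase that passes on the signal of the T cell receptor, in every cell, and WT and SKG mice came from the same BALB/cJ by SKG cross. No treatment was given and the age of the mice was not in the sources used here. NKT1 cells were sorted as low for ICOS and positive for CD49a, NKT2 cells as high for ICOS, CD4 and TCRβ and negative for CD49 and Sdc-1, and NKT17 cells as high for ICOS, negative for CD49 and positive for Sdc-1. The study asked how the subsets differ and what weaker Zap70 signalling does to each of them.

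Semaphorins are membrane-bound or secreted ligands first described as guidance cues for growing axons, and plexins are their receptors, which act on small GTPases and the cytoskeleton. Neuropilins are co-receptors that bind class 3 semaphorins and vascular endothelial growth factors and have only a short cytoplasmic tail. In the immune system Sema4a and Sema4d (CD100) are costimulatory molecules of T cells and antigen-presenting cells, Sema4d binds CD72 as well as B-type plexins, Sema7a is a lipid-anchored ligand of plexin C1 and of β1 integrins, and plexin D1 takes part in the migration of thymocytes.

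The libraries held 4391029 to 8895917 counts each and 11657 to 13071 genes with a count. Levels are CPM, counts scaled to the library total, after trimmed mean of M-values (TMM) scaling, and 3 counts, the floor used here per library, correspond to 0.362 to 0.661 CPM. The subset markers followed the labels: the summed level of 5 NKT17 markers, with Il23r and Il1r1 among them, was 1328 to 1514 CPM in the NKT17 libraries and at most 5.11 CPM in the others, and that of 6 NKT1 markers was 7349 to 9661 CPM in NKT1 and at most 438 CPM elsewhere. Sdc1 among the NKT17 markers and Icos among the NKT2 markers encode proteins used in the sort. Markers differed between WT and SKG libraries within each subset, as given below. The 6 NKT2 markers were less selective, at 1578 to 2698 CPM in NKT2, 1745 to 2644 CPM in NKT17 and 556 to 784 CPM in NKT1. Markers of other cells were present to different degrees. The 8 myeloid and dendritic markers summed to 145.3 to 318.4 CPM over the libraries, nearly all of it Cst3 (166.3 to 294.2 CPM on average in the groups), with Cd74 at 1.15 to 7.43 CPM and Lyz2 at 0.649 to 4.86 CPM on average and Siglech without a count. The 6 endothelial and stromal markers summed to 14.9 to 134.7 CPM, mostly Pecam1, with Pdgfra without a count, and the 5 B cell markers to 0.323 to 40.7 CPM, with Pax5 without a count. Foxp3 of regulatory T cells had at most 3 counts in any library. The replicates were separate libraries, since all 18 pairs within a group differed by more than counting noise (chi-square per degree of freedom 5.47 to 24.4). The labels do not say whether the 3 libraries of a group came from separate mice, so the p-values given for other genes measure the spread between these libraries. In these sorted bulk samples fewer cells with a transcript and less of it per cell cannot be told apart.

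All 8 genes matched a RefSeq promoter window by symbol, and the windows of 3 of them are printed because these genes showed the largest contrasts between groups. Each window is 300 bases long and runs from upstream of the annotated start into the transcript, 5′ to 3′ on the gene's strand, from RefSeq on build GRCm38.p6: Nrp1 at chr8:128358823-128359122 (plus strand), Nrp2 at chr1:62703067-62703366 (plus strand) and Plxnd1 at chr6:115994956-115995255 (minus strand). The searched motifs were AGGTCA, the half-site of nuclear receptors, TCACACC, the half-site of T-box factors, GCGTGGG, the core of Egr factors, and AGATAA, read by GATA factors, each on both strands, and capitals mark their matches.
Nrp1: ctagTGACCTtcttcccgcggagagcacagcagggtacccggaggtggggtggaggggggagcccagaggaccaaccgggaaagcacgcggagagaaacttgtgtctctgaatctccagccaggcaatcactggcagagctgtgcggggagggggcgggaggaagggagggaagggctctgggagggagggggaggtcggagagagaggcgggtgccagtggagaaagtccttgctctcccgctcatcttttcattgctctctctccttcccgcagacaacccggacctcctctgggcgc
Nrp2: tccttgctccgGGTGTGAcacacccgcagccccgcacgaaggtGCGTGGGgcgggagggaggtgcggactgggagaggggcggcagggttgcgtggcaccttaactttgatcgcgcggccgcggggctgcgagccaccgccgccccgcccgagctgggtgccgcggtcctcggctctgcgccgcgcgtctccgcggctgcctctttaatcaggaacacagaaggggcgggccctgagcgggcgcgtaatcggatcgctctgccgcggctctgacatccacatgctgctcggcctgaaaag
Plxnd1: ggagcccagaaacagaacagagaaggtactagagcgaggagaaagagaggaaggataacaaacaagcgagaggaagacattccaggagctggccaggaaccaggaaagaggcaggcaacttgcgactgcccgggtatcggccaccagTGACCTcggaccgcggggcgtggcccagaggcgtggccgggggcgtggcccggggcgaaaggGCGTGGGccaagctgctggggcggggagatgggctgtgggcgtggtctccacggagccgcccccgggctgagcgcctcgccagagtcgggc
The Nrp1 and Plxnd1 windows each held 1 AGGTCA match on the strand opposite to the gene, the Nrp2 window held TCACACC on the opposite strand, and the Nrp2 and Plxnd1 windows held GCGTGGG on the gene's strand; no match overlapped another, and none of the 3 windows held AGATAA. Of 32851 mouse promoter windows of this length, 16.3% held AGGTCA, 3.98% TCACACC, 5.04% GCGTGGG and 11.2% AGATAA. A match is a run of letters and not a shown binding site.

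The class 4 semaphorins made up most of the family's transcripts. Per kilobase of exon, the summed level of all 31 genes was 187.6 ± 11.8 CPM per kb in WT NKT1, 191.6 ± 5.77 in SKG NKT1, 100.4 ± 3.59 in WT NKT2, 100.2 ± 1.61 in SKG NKT2, 167.8 ± 30.8 in WT NKT17 and 183.1 ± 12.7 in SKG NKT17 (mean ± SD, n = 3). Sema4a, Sema4b and Sema4d together were 90.8% to 93.3% of that sum in the NKT1 libraries, 83.8% to 85.4% in NKT17 and 76.5% to 82.1% in NKT2. The family's summed level was thus lowest in NKT2 cells of both genotypes, the subset in which the share of these 3 genes was also lowest. In WT NKT1 cells the order per length among the 8 listed genes was Sema4a at 117.4 CPM per kb, Sema4d at 45.7, Sema4b at 10.1, Plxnc1 at 4.33, Nrp1 at 2.61, Nrp2 at 0.408 and Plxnd1 at 0.0194, with no count of Sema7a. Sema4f, a class 4 gene outside the list, was at 5.74. Of the 31 genes, 8 had no count in any library (among them Sema3a, Sema3b, Sema3c, Sema3d and Sema3g, secreted ligands that use neuropilins) and 5 more had at most 3 counts in every library, Sema7a included.

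**Figure D1:**
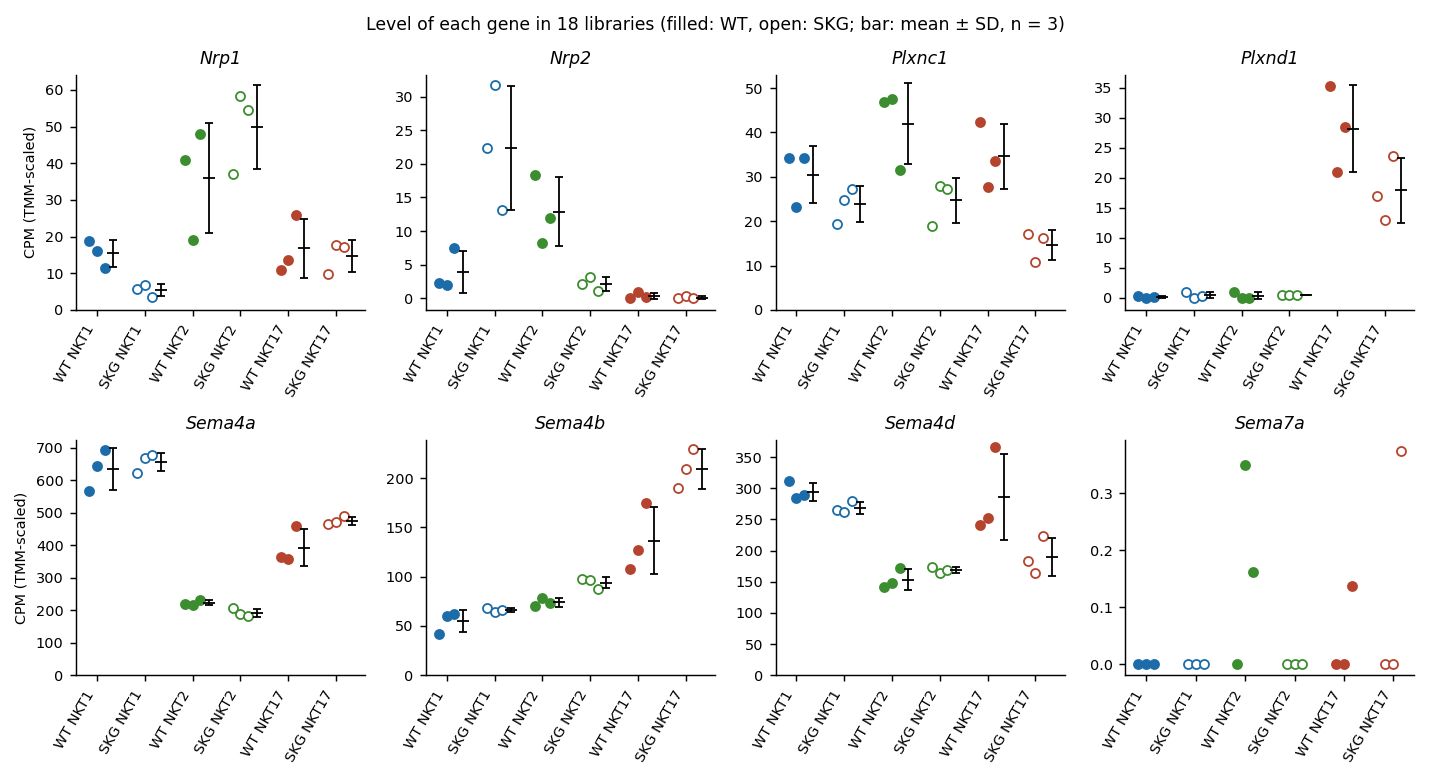
Level of each of the 8 genes (vertical axis, TMM-scaled CPM, linear) in the 3 libraries of each group (horizontal axis). Filled points are WT and open points SKG libraries, and the black bar beside them is the mean ± SD of the 3 libraries (not drawn for Sema7a, which had at most 2 counts in any library). Plxnd1 is above 12 CPM only in the NKT17 groups, Nrp2 is highest in SKG NKT1 and WT NKT2, and Sema4b climbs through the groups without overlap.

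Of the 8 genes, the neuropilins showed the largest differences between genotypes. Nrp2 (chr1:62749859-62865269 on mm9, plus strand) stood at 2.29, 1.91 and 7.44 CPM in the 3 WT NKT1 libraries and at 22.3, 31.7 and 13.2 CPM in the SKG NKT1 libraries. It stood at 18.4, 8.21 and 12.0 CPM in WT NKT2 and at 2.20, 3.13 and 1.12 CPM in SKG NKT2. The ranges of WT and SKG did not overlap in either subset, and the direction was opposite: SKG libraries were the higher ones in NKT1 and the lower ones in NKT2. The group means differed 5.77-fold in NKT1 (log2 fold change 2.53, SE 0.59) and 5.97-fold in NKT2 (log2 fold change −2.58, SE 0.63). In NKT17 cells Nrp2 had 0 to 5 counts in a library (0.000, 0.869 and 0.137 CPM in WT and 0.000, 0.349 and 0.000 CPM in SKG), so a genotype difference was not detectable at this depth. Without SKG NKT1 replicate 2 the NKT1 log2 fold change was 2.20 and no longer passed the thresholds described below; it passed without any 1 of the other NKT1 libraries. The NKT2 difference passed in every alternative in which Nrp2 was tested.

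Nrp1 (chr8:130882973-131029362 on mm9, plus strand) was the more abundant neuropilin per length in all groups but SKG NKT1. It was at 18.8, 16.0 and 11.3 CPM in WT NKT1 and at 5.57, 6.87 and 3.64 CPM in SKG NKT1. It was at 40.9, 19.0 and 48.0 CPM in WT NKT2 and at 37.0, 58.3 and 54.4 CPM in SKG NKT2. SKG NKT1 libraries thus lay below all WT NKT1 libraries, while the NKT2 ranges overlapped. The log2 fold change of SKG over WT was −1.54 (SE 0.39) in NKT1, 0.47 (SE 0.34) in NKT2 and −0.20 (SE 0.36) in NKT17, where the libraries read 10.9, 13.6 and 25.9 CPM in WT and 9.77, 17.6 and 17.1 CPM in SKG. The NKT1 difference no longer passed the thresholds without WT NKT1 replicate 1 (−1.34), SKG NKT1 replicate 1 (−1.55) or SKG NKT1 replicate 3 (−1.30). The annotated exons of Nrp1 contain the miRNA gene Mir1903 on the same strand, over 80 of 5907 bases. Pecam1, an adhesion molecule listed here as an endothelial marker, also differed between the groups, at 23.3 CPM in WT NKT1, 12.6 in SKG NKT1, 110.9 in WT NKT2, 87.8 in SKG NKT2, 58.8 in WT NKT17 and 51.1 in SKG NKT17. The sum of the 6 endothelial and stromal markers ranged from 14.9 to 33.8 CPM in NKT1, 77.5 to 134.7 in NKT2 and 52.6 to 77.9 in NKT17, with Pdgfra at 0 in all groups and Cdh5 and Tek each at 0 in at least 4, and its part in the Nrp1 levels was not tested.

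Set against each other per length, the 2 neuropilins changed places in NKT1 cells. The ratio of Nrp2 to Nrp1 in CPM per kb was 0.0757, 0.0740 and 0.408 in the WT NKT1 libraries and 2.48, 2.86 and 2.25 in the SKG NKT1 libraries. It was 0.280, 0.268 and 0.155 in WT NKT2 and 0.0370, 0.0334 and 0.0128 in SKG NKT2. Nrp2 therefore exceeded Nrp1 in all 3 SKG NKT1 libraries and in none of the other 15. In the WT and SKG NKT17 libraries the ratio was at most 0.0398.

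**Figure D2:**
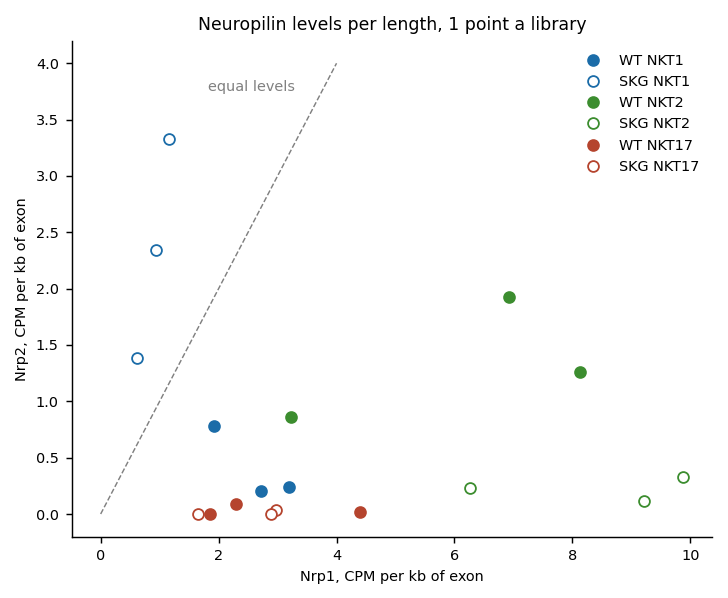
Level of Nrp2 against level of Nrp1 in each of the 18 libraries, both in CPM per kb of exon on linear axes of different scale; the dashed line marks equal levels. The 3 SKG NKT1 libraries lie above the line at ratios of 2.25 to 2.86, and the other libraries lie below it.

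Ordered by group mean, Nrp1 ran from SKG NKT2 (49.9 ± 11.4 CPM, mean ± SD, n = 3) through WT NKT2 (36.0 ± 15.1), WT NKT17 (16.8 ± 8.01), WT NKT1 (15.4 ± 3.79) and SKG NKT17 (14.8 ± 4.38) to SKG NKT1 (5.36 ± 1.63). Only the last step in that order was free of overlap between neighbours. Nrp2 ran from SKG NKT1 (22.4 ± 9.25 CPM) through WT NKT2 (12.9 ± 5.15), WT NKT1 (3.88 ± 3.09), SKG NKT2 (2.15 ± 1.01) and WT NKT17 (0.336 ± 0.467) to SKG NKT17 (0.116 ± 0.201). Neighbouring ranges of Nrp2 were apart between WT NKT2 and WT NKT1 and between SKG NKT2 and WT NKT17, and overlapped at the other steps.

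The 2 plexins had unlike patterns. Plxnd1 (chr6:115904829-115945023 on mm9, minus strand) was found almost entirely in NKT17 cells, with 35.3, 20.9 and 28.4 CPM in WT NKT17 and 17.0, 12.9 and 23.6 CPM in SKG NKT17. In the 12 NKT1 and NKT2 libraries it had 0 to 5 counts, at most 1.02 CPM. Against WT NKT1, where no library exceeded 3 counts, WT NKT17 cells were at least 57.7-fold higher, and SKG NKT17 cells were at least 31.0-fold higher than SKG NKT2. The log2 fold change of NKT17 over NKT2 was 6.44 (SE 0.72) in WT, and that of NKT1 over NKT17 in SKG was −5.29 (SE 0.68). Within NKT17 the genotypes overlapped, with a log2 fold change of SKG over WT of −0.66 (SE 0.48), and in NKT1 and NKT2 the counts were too few to show a genotype difference.

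Plxnc1 (chr10:94253617-94407212 on mm9, minus strand), the receptor of Sema7a, was present in all 3 subsets and was lower in SKG libraries of NKT17 and NKT2. The WT NKT17 libraries read 42.4, 27.8 and 33.6 CPM and the SKG NKT17 libraries 17.0, 10.8 and 16.1 CPM. The WT NKT2 libraries read 46.8, 47.5 and 31.5 CPM and the SKG NKT2 libraries 18.9, 28 and 27.3 CPM. In both subsets every SKG library lay below every WT library, whereas in NKT1 the ranges overlapped (34.2, 23.1 and 34.2 CPM in WT, 19.3, 24.8 and 27.2 CPM in SKG). The log2 fold changes of SKG over WT were −1.23 (SE 0.25) in NKT17, −0.76 (SE 0.24) in NKT2 and −0.36 (SE 0.24) in NKT1. The NKT17 difference passed the thresholds in all alternatives, while the NKT2 difference did not without WT NKT2 replicate 1 (−0.67), WT NKT2 replicate 2 (−0.64) or SKG NKT2 replicate 1 (−0.60). The NKT2 difference also failed at an adjusted p under 0.05. Compared directly, the genotype effects of the subsets did not differ past the thresholds. The values were −0.87 (SE 0.35) for NKT17 minus NKT1, −0.39 (SE 0.34) for NKT2 minus NKT1 and −0.48 (SE 0.35) for NKT17 minus NKT2. Among the WT subsets Plxnc1 means of 30.5 to 42.0 CPM had overlapping ranges throughout. Sema7a (chr9:57787920-57810671 on mm9, plus strand), its ligand, had 6 counts in all, in 4 of the 18 libraries and never above 2, and was not tested.

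Sema4a (chr3:88239881-88265104 on mm9, minus strand) was the most abundant family member per length in every group. Its libraries read 567.2, 643.9 and 693.5 CPM in WT NKT1, 220.5, 217.4 and 232.1 CPM in WT NKT2, and 363.7, 356.1 and 457.9 CPM in WT NKT17. The SKG libraries read 623.7, 667.4 and 677.1 CPM in NKT1, 206.4, 187.6 and 183.4 CPM in NKT2, and 463.8, 470.2 and 488.9 CPM in NKT17. In both genotypes the order was therefore NKT1 above NKT17 above NKT2 with no overlap between subsets. The log2 fold change of NKT1 over NKT2 was 1.51 (SE 0.11) in WT and 1.77 (SE 0.11) in SKG. Between genotypes the differences were small: 0.05 (SE 0.10) in NKT1, −0.22 (SE 0.10) in NKT2 and 0.27 (SE 0.10) in NKT17 on the log2 scale, the last 2 without overlap of the ranges but short of the thresholds.

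Sema4b (chr7:87331727-87371280 on mm9, plus strand) was highest in NKT17 cells and higher in SKG than in WT libraries of each subset. It read 41.8, 60.1 and 62.4 CPM in WT NKT1, 63.7 to 68.0 CPM in SKG NKT1, 69.9 to 78.8 CPM in WT NKT2 and 87.5 to 97.3 CPM in SKG NKT2. In NKT17 it read 108.0, 126.9 and 174.4 CPM in WT and 189.5, 209.0 and 229.5 CPM in SKG. The 6 groups thus followed each other without any overlap between neighbours, which held for none of the other 7 genes. The log2 fold change of SKG over WT was 0.62 (SE 0.16) in NKT17, 0.34 (SE 0.16) in NKT2 and 0.27 (SE 0.16) in NKT1. The NKT17 value fell short of the thresholds without WT NKT17 replicate 1 (0.46), WT NKT17 replicate 2 (0.56) or SKG NKT17 replicate 3 (0.54). It also fell short when the number in the library titles was fitted as a block (0.50).

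Sema4d (chr13:51796615-51889116 on mm9, minus strand) was lower in NKT2 than in the other WT subsets, and in SKG mice its NKT17 level came close to that of NKT2. WT NKT17 libraries read 240.3, 252.0 and 366.2 CPM and SKG NKT17 libraries 182.9, 163.8 and 222.6 CPM, without overlap. NKT1 libraries read 310.8, 283.7 and 289.3 CPM in WT and 264.4, 261.2 and 279.3 CPM in SKG, and NKT2 libraries 141.0, 147.5 and 172.0 CPM in WT and 173.5, 164.6 and 168.9 CPM in SKG. SKG over WT gave log2 fold changes of −0.59 (SE 0.14) in NKT17, −0.14 (SE 0.14) in NKT1 and 0.14 (SE 0.14) in NKT2. The NKT17 value fell short of the thresholds without SKG NKT17 replicate 1 (−0.57), SKG NKT17 replicate 2 (−0.50) or WT NKT17 replicate 3 (−0.37). NKT17 over NKT2 was 0.90 (SE 0.14) in WT and 0.17 (SE 0.14) in SKG on the log2 scale.

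Markers also moved with genotype in the NKT17 libraries in which Sema4b, Sema4d and Plxnc1 differed. Of the NKT17 markers, Ccr6 averaged 12.0 CPM in WT and 592.3 CPM in SKG NKT17. In the same order Il23r averaged 454.1 and 244.5 CPM, Il1r1 466.6 and 232.5 CPM, and Il17a 41.1 and 8.48 CPM. Sdc1 averaged 421.5 and 415.5 CPM. The 5 listed B cell markers summed to 24.8 to 40.7 CPM in SKG NKT17 and 7.82 to 11.1 CPM in WT NKT17, nearly all of it Cd79b (34.6 and 9.20 CPM), with Pax5 at 0. The 7 double-positive thymocyte markers summed to 14.3 to 47.5 CPM in SKG NKT17 and 5.27 to 12.5 CPM in WT NKT17, mostly Cd8b1, with Rag1, Rag2, Dntt and Arpp21 at 0. The 6 cycling markers, Mki67 and Top2a among them, summed to 44.3 to 59.5 CPM in SKG NKT17 and 88.2 to 193.7 CPM in WT NKT17. The part of these markers in the 3 differences was not tested. In NKT2 the 6 NKT2 markers summed to 2480 to 2698 CPM in WT and 1578 to 1993 CPM in SKG. In the same order Pdcd1 averaged 583.6 and 92.1 CPM, Il17rb 277.8 and 480.5 CPM, and Zbtb16 194.4 and 193.3 CPM. In NKT1 the 6 NKT1 markers summed to 8614 to 9661 CPM in WT and 7349 to 8082 CPM in SKG. There Pdcd1 averaged 127.2 and 17.1 CPM, and Il4 15.3 and 47.5 CPM. The part of these shifts in the NKT1 and NKT2 differences was not tested.

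**Figure D3:**
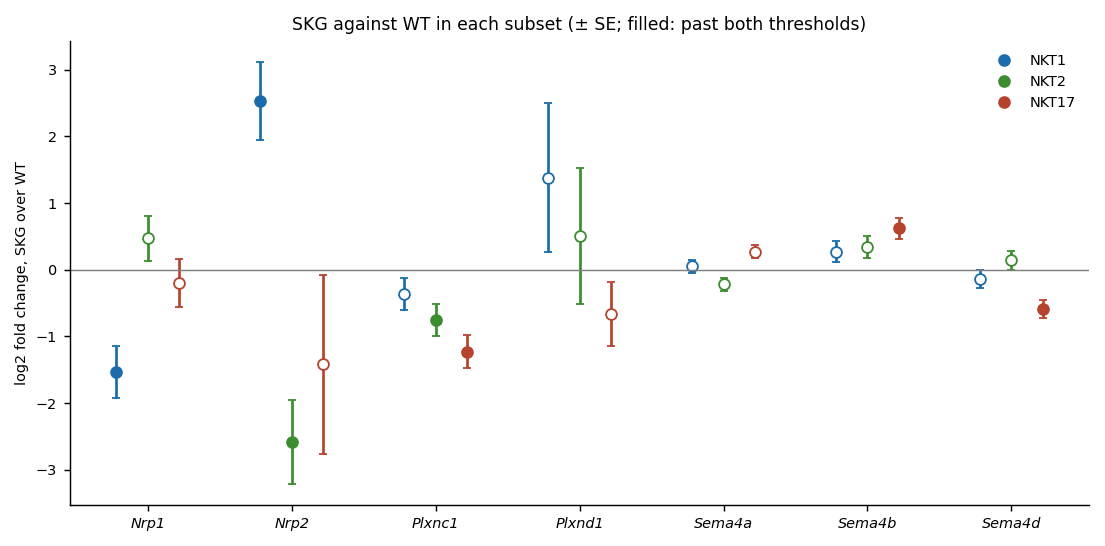
Log2 fold change of SKG over WT (vertical axis) for the 7 tested genes in NKT1, NKT2 and NKT17 cells; bars are the SE and filled points passed both thresholds. Nrp2 lies at 2.53 in NKT1 and −2.58 in NKT2, and Sema4a stays within 0.27 of zero in all subsets.

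A call required both thresholds of the study, an adjusted p under 0.1 (Benjamini-Hochberg, over 11118 genes, from edgeR's quasi-likelihood test) and a fold change of at least 1.5. For SKG against WT, 2 of the 7 tested genes were called in NKT1 (Nrp2 higher, Nrp1 lower), where 3.27% of all genes were called, 2 in NKT2 (Nrp2 and Plxnc1 lower; background 7.95%) and 3 in NKT17 (Sema4b higher, Plxnc1 and Sema4d lower; background 8.37%). Because the genes were picked with these contrasts known, nothing is read from these counts. Their median log2 fold change was 0.05, 0.14 and −0.59 in NKT1, NKT2 and NKT17, against −0.01, 0.00 and 0.00 over all genes. The counts in NKT1 fell to 1 without WT NKT1 replicate 1 or any 1 of the SKG NKT1 libraries, and in NKT2 to 1 without WT NKT2 replicate 1 or 2 or SKG NKT2 replicate 1.

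Between WT subsets, 4 of 7 were called for NKT1 against NKT2 (Sema4a and Sema4d higher in NKT1, Nrp1 and Nrp2 lower; 27.5% of all genes), 4 for NKT1 against NKT17 (Nrp2 and Sema4a higher in NKT1, Plxnd1 and Sema4b lower; 24.7%) and 6 for NKT17 against NKT2 (Plxnd1, Sema4a, Sema4b and Sema4d higher in NKT17, Nrp1 and Nrp2 lower; 20.0%). Between SKG subsets the same 3 comparisons called 4, 5 and 6 of 7, with 18.7%, 22.8% and 18.8% of all genes called. The comparisons share libraries and are not independent of each other. The lists of called genes differed between genotypes for Nrp1, Nrp2, Plxnc1, Sema4a and Sema4d. In NKT1 against NKT2, Nrp2 was lower in NKT1 in WT (log2 fold change −1.73, SE 0.59) and higher in NKT1 in SKG (3.38, SE 0.63). Nrp1 in NKT1 against NKT17 was at −0.13 (SE 0.36) in WT and at −1.47 (SE 0.39) in SKG. Plxnc1 in NKT17 against NKT2 was at −0.28 (SE 0.24) in WT and at −0.76 (SE 0.25) in SKG. In NKT1 against NKT17 it was at −0.18 (SE 0.24) in WT and 0.70 (SE 0.25) in SKG. Sema4a in NKT1 against NKT17 was at 0.69 (SE 0.10) in WT and, short of a 1.5-fold change, at 0.47 (SE 0.10) in SKG. Sema4d in NKT17 against NKT2 was at 0.90 (SE 0.14) in WT and 0.17 (SE 0.14) in SKG. The WT call of Nrp2 in NKT1 against NKT2 was lost without WT NKT1 replicate 1 (−1.45) or 2 (−1.43) or WT NKT2 replicate 1 (−1.39), and that of Nrp1 in NKT17 against NKT2 (−1.08, SE 0.35) without WT NKT17 replicate 1 (−0.84) or 2 (−0.94) or WT NKT2 replicate 3 (−0.81). The SKG calls of Plxnc1 were lost without SKG NKT17 replicate 2 in both of its comparisons (0.52 for NKT1 over NKT17 and −0.59 for NKT17 over NKT2), without SKG NKT1 replicate 2 (0.66) or 3 (0.60) in the first and without SKG NKT2 replicate 2 (−0.67) or 3 (−0.68) in the second. Calls were gained for Plxnc1 in WT NKT1 against NKT2 without WT NKT2 replicate 3 (−0.63, against −0.46 with it) and for Sema4d in SKG NKT1 against NKT17 without SKG NKT17 replicate 3 (0.63, against 0.50 with it). Nrp2 in SKG NKT1 was at least 44.4-fold higher than in SKG NKT17, whose libraries had at most 2 counts.

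**Figure D4:**
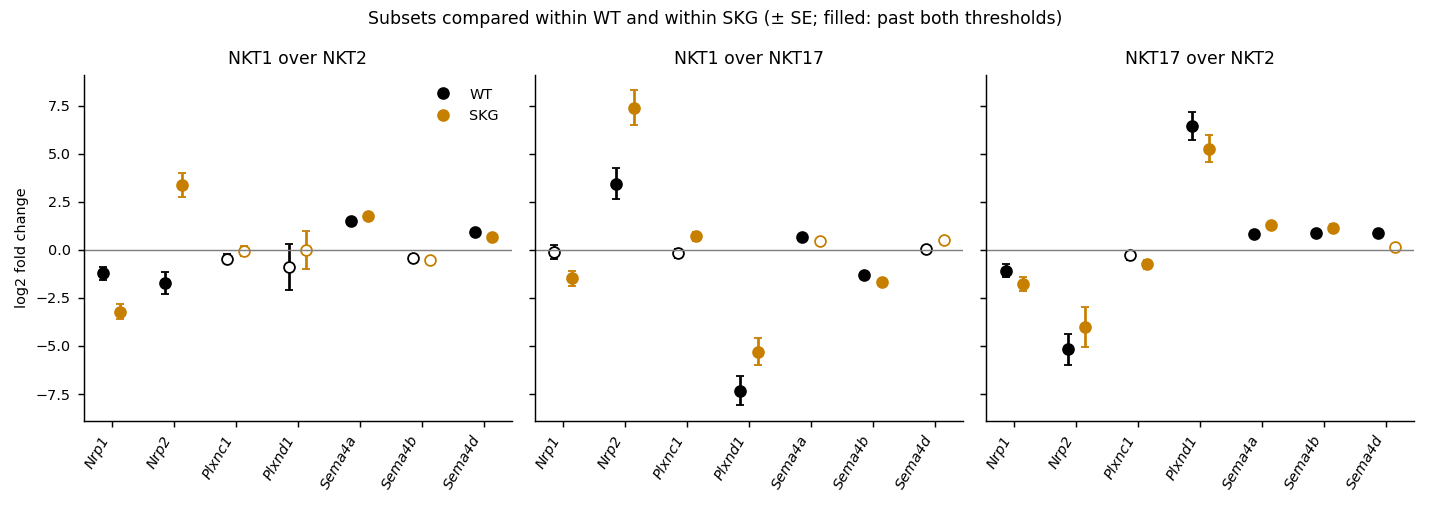
Log2 fold change between subsets (vertical axis) for the 7 tested genes, with WT in black and SKG in orange; bars are the SE and filled points passed both thresholds. Nrp2 lies on opposite sides of zero in WT and SKG for NKT1 over NKT2 (−1.73 and 3.38), and Plxnd1 lies at 6.44 and 5.27 for NKT17 over NKT2.

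The difference of the genotype effect between subsets was fitted directly. For NKT2 minus NKT1 it was −5.11 (SE 0.86) for Nrp2 and 2.01 (SE 0.52) for Nrp1 on the log2 scale, both past the thresholds, in a contrast that called 3.87% of all genes. For NKT17 minus NKT2 it was −0.73 (SE 0.19) for Sema4d, the only one of the 7 called, against 2.19% of all genes. For NKT17 minus NKT1 none of the 7 was called (4.17% of all genes), with Nrp2 at −3.95 (SE 1.5) and Nrp1 at 1.33 (SE 0.53). With DESeq2 the Nrp2 value passed the thresholds (−4.14). Without WT NKT1 replicate 3 the Nrp2 value passed (−4.83), and without WT NKT17 replicate 3 the Nrp1 value did (1.79), as did Sema4a for NKT17 minus NKT2 (0.49 with all libraries, 0.62 without that one). The Nrp1 value did not pass without SKG NKT1 replicate 3 (1.79) or SKG NKT2 replicate 2 (1.87). The Sema4d value did not pass at an adjusted p under 0.05, nor without WT NKT2 replicate 1 (−0.68) or 2 (−0.73), WT NKT17 replicate 3 (−0.50), SKG NKT17 replicate 1 (−0.71) or 2 (−0.63), or any of SKG NKT2 replicates 1, 2 and 3 (−0.71, −0.76 and −0.73).

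Among the other 23 family genes only Sema4f, Sema6c and Plxna3 had enough counts to be tested. Sema6c was called for SKG against WT in no subset. Its genotype effect was called for NKT2 minus NKT1 (5.02, SE 1.49, edgeR adjusted p = 0.0793) and NKT17 minus NKT1 (5.17, SE 1.39, adjusted p = 0.0479). Its NKT1 libraries had only 1 to 10 counts in WT and 0 to 1 in SKG. Of the untested genes, Sema4c had 8 to 36 counts in WT NKT1 and 0 in SKG NKT1. Sema6a had 6 to 18 counts in WT NKT2 and 0 in SKG NKT2. Sema4f, a transmembrane class 4 semaphorin like the members above, rose in SKG NKT1 from 29.5 ± 2.68 to 48.9 ± 1.18 CPM, a log2 fold change of 0.73 (SE 0.19, adjusted p = 0.0344 in edgeR). It was at 29.6 and 40.2 CPM in WT and SKG NKT2 and at 65.0 and 96.8 CPM in WT and SKG NKT17, and neither difference was called. In NKT2 the adjusted p was 0.177 in edgeR. In NKT17 the edgeR adjusted p of 0.052 passed, but the log2 fold change of 0.57 (SE 0.18) fell just short of a 1.5-fold change. Plxna3, a receptor of class 3 semaphorins together with neuropilins, fell in SKG NKT2 from 14.5 ± 7.41 to 3.96 ± 1.58 CPM, a log2 fold change of −1.87 (SE 0.53, adjusted p = 0.0296 in edgeR). It was also lower without overlap, though not called, in SKG NKT1 and SKG NKT17. The means were 3.25 and 0.883 CPM in WT and SKG NKT1 (−1.88, SE 0.63, edgeR adjusted p = 0.13). In NKT17 they were 4.31 and 2.36 CPM (−0.87, SE 0.55, edgeR adjusted p = 0.395). The effect in NKT2 minus that in NKT1 was 0.01 and not called. In WT cells the mean of Plxna3, like those of Nrp1 and Nrp2, was highest in NKT2. The B-type plexins, receptors of Sema4d, stayed at or below 1.14 CPM on average in every group.

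The co-receptors, ligands and signalling proteins of the pathway formed a list of 57 genes, of which 41 were tested. In SKG against WT, 2 were called in NKT1, both lower; 5 in NKT2, 3 higher and 2 lower; and 10 in NKT17, 4 higher and 6 lower. These were 4.88%, 12.2% and 24.4% of the 41, beside 3.27%, 7.95% and 8.37% of all genes tested; the list was assembled with earlier results known and nothing is read from these shares. Their median log2 fold change was 0.00, 0.04 and 0.02, close to the medians over all genes. Cd72, the lymphocyte receptor of Sema4d, rose in SKG NKT2 from 3.34 ± 0.471 to 23.4 ± 0.789 CPM, a log2 fold change of 2.80 (SE 0.27, adjusted p = 2.07e-07 in edgeR), and in SKG NKT17 from 69.0 ± 11.4 to 132.7 ± 11.2 CPM (0.94, SE 0.21, adjusted p = 0.00503). In NKT1 it was at 3.25 and 2.59 CPM in WT and SKG, and the effect in NKT2 exceeded that in NKT1 (difference 3.10, SE 0.43, edgeR adjusted p = 9.38e-05). In NKT17 cells of SKG mice Cd72 was thus higher while Sema4d was lower than in WT.

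Mmp14, a membrane protease that cleaves class 4 semaphorins, fell in SKG cells of all 3 subsets: from 6.61 to 2.17 CPM in NKT1 (−1.60 on the log2 scale, SE 0.46, adjusted p = 0.0655 in edgeR), from 8.06 to 1.01 CPM in NKT2 (−2.92, SE 0.51, adjusted p = 0.000509) and from 76.2 to 19.0 CPM in NKT17 (−2.00, SE 0.36, adjusted p = 0.00085). Adam10 and Adam17, proteases that also release membrane proteins, were at 185.4 to 256.1 and 88.7 to 144.1 CPM on average and were not called in any genotype comparison. Gipc1, an adaptor that binds the neuropilin tail, fell in SKG NKT2 from 81.0 ± 5.69 to 52.5 ± 3.38 CPM (−0.63, SE 0.12, edgeR adjusted p = 0.00165).

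Of the growth factor ligands and receptors that pair with neuropilins, Figf and Pgf had no count, and Vegfa had at most 3 counts in a library. Vegfb was at 5.22 to 13.5 CPM on average and Tgfb1 at 33.0 to 41.3 CPM. The receptors Kdr and Flt1 were at or near 0, whereas Flt4 was found in NKT17 cells, where it fell from 14.0 ± 4.17 CPM in WT to 3.73 ± 0.684 CPM in SKG, a log2 fold change of −1.91 (SE 0.57, adjusted p = 0.0457 in edgeR). In WT, Flt4 in NKT17 was at least 28.7-fold above NKT1 and at least 26.0-fold above NKT2, a distribution like that of Plxnd1. L1cam, an adhesion molecule that forms complexes with Nrp1, rose in SKG NKT17 from 20.5 ± 7.50 to 54.1 ± 1.77 CPM (1.39, SE 0.27, edgeR adjusted p = 0.00127).

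Among the effectors, the kinase Fes fell in SKG NKT1 from 30.9 ± 4.94 to 10.5 ± 4.76 CPM, a log2 fold change of −1.56 (SE 0.38, adjusted p = 0.0232 in edgeR), and rose in SKG NKT17 from 2.24 ± 1.07 to 17.7 ± 3.56 CPM (2.94, SE 0.42, adjusted p = 5.27e-05), and the difference between these effects was itself called (4.49, SE 0.57, adjusted p = 4.52e-05). Fes and Mmp14 in NKT1 lost their calls without SKG NKT1 replicate 1. In SKG NKT2 the small GTPase gene Rras2 rose (1.37, SE 0.33, edgeR adjusted p = 0.0131), as did Mical1, an oxidase of actin filaments (1.02, SE 0.15, adjusted p = 5.78e-05). In SKG NKT17 Rras rose (1.52, SE 0.35, edgeR adjusted p = 0.00584), and Crmp1 (−0.67, SE 0.22, adjusted p = 0.06), the phosphatase gene Ptpn6 (−0.64, SE 0.16, adjusted p = 0.0175), and the kinase gene Pak1 (−4.15, SE 1.11, adjusted p = 0.021) fell. Mras was at 1.22 CPM in WT NKT17 and had no count in SKG NKT17, at least 2.41-fold lower (edgeR adjusted p = 0.0256). Of the 2 largest called changes of the list in each WT subset comparison (mean count of 10 or more), those besides Flt4 were the changes of Itga1, whose product CD49a was a sort marker of NKT1 and is no finding, of Fes, at least 57.2-fold higher in NKT1 than in NKT2, and of Farp2, at 1.90 CPM in NKT17 and 0.0583 CPM in NKT2 with overlapping ranges.

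**Figure D5:**
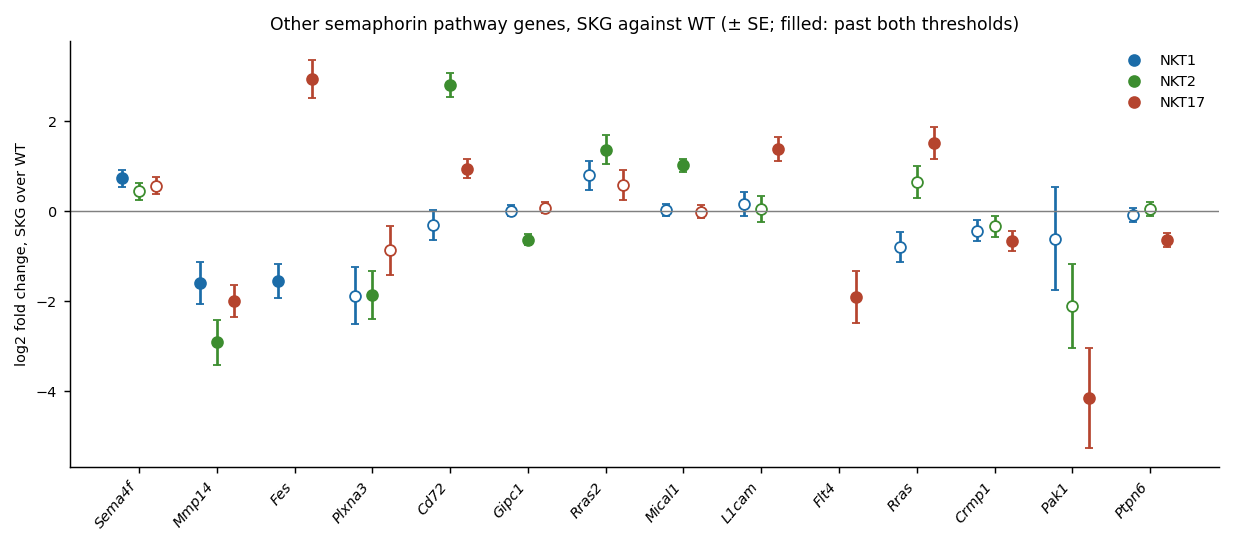
Log2 fold change of SKG over WT (vertical axis) for the other family and pathway genes called in at least 1 subset; bars are the SE and filled points passed both thresholds. Pairs of groups with at most 3 counts in every library are left out, as is Mras, which had no count in SKG NKT17. Mmp14 lies below zero in all 3 subsets, Cd72 reaches 2.80 in NKT2, and Fes lies at −1.56 in NKT1 and 2.94 in NKT17.

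The genes most like each member were found among 8389 genes by Pearson's correlation of log2 CPM over the 18 libraries, given as a description, since the libraries share 6 groups and the same subset differences. Nrp1 was most like Scml4 (r = 0.883), Limd2 and Utrn, and Nrp2 most like Ptger4 (r = 0.897), a prostaglandin E receptor gene, Oas3 and Ap1b1. Ptger4 had group means of 112.2 and 186.5 CPM in WT and SKG NKT1, 186.3 and 99.3 CPM in WT and SKG NKT2, and 32.2 and 30.5 CPM in NKT17, so that it too was higher in SKG libraries of NKT1 and lower in those of NKT2. Plxnd1 was most like Kcnk1, Il23r and Sdc1 (r = 0.975 each), of which Sdc1 encodes the surface protein used to sort NKT17 cells. Sema4a was most like Dhx16 (r = 0.969), Pik3ap1 and Spryd3, Sema4b most like Fbxo17 (r = 0.951), Trp53i13 and Cd72, Sema4d most like Ifi203 (r = 0.901), Ifngr1 and Il18rap, and Plxnc1 most like Mettl6 (r = 0.860), Sept7 and 2810004N23Rik. Cd72 was thus both the receptor of Sema4d and, at r = 0.924, the third closest gene to Sema4b.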

How the data were processed

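Poly-A RNA of sorted thymic cells was amplified by a Smart-seq2-type protocol, tagmented with Tn5 and sequenced as single-end reads. The authors aligned the reads with TopHat (1.4.1) to mm9 and deposited raw counts per gene from htseq-count in union mode (HTSeq 0.7.1 and Bowtie 1.0.0 in the submitters' processing notes). The processing notes also name other builds, and no strand setting was given in the sources used here. The deposited table has 2 columns that match no sample and were not used.

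The members and the gene lists, the motifs and the likeness search were chosen with earlier results of these data known. Counts of 18 libraries were TMM-scaled and fitted in 1 model of 6 groups with edgeR (4.0.16, R 4.3.3; robust quasi-likelihood, filterByExpr by group), and p-values were adjusted over all 11118 tested genes by the Benjamini-Hochberg method; the common biological coefficient of variation was 21.1%. The SE was taken from each log2 fold change and its F statistic (their quotient with the root of F). CPM per kb used GENCODE exon lengths on mm9. Genes named besides the members were those called in any SKG against WT comparison, the 2 largest called changes in each WT subset comparison with a mean of at least 10 counts, and the 3 genes most correlated with each member (log2 CPM, prior count 2, mean of at least 10 CPM). Some further genes were named outside this rule, Sema4c, Sema6a and Sema6c among them. The fits were also run on counts simulated with the same spread for every gene, which cannot speak for genes with a larger spread between libraries. Alternatives were RLE and upper-quartile scaling, DESeq2 (1.42.0), fits of the compared libraries only, a filter at 50 mean counts, no filter, no minimum of fold change, a stricter adjusted p (0.05), a block on the number in the library titles, the same block within each genotype (added after seeing the data), and leaving out each library. A gene of the NKT17 list and a gene of the B cell list of markers are not reported here, and the sums leave them out.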

Additional observations from a re-analysis of the deposited data

Results flagged for a closer look

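For 3 members the difference of the genotype effect between subsets passed the thresholds in the interaction contrast of edgeR's quasi-likelihood fit. Some other listed genes, Cd72 and Fes among them, also passed. The genes were chosen with these same counts known, so the values are a description and no independent evidence of a difference. For Nrp2 the effect of SKG in NKT2 minus that in NKT1 was −5.11 (SE 0.86) on the log2 scale, with all 3 SKG libraries above the WT libraries in NKT1 and all 3 below them in NKT2. For Nrp1 the same difference was 2.01 (SE 0.52), short of the thresholds without SKG NKT1 replicate 3 (1.79) or SKG NKT2 replicate 2 (1.87). For Sema4d the effect in NKT17 minus that in NKT2 was −0.73 (SE 0.19), which fell short at an adjusted p under 0.05 and in 8 of the fits that left out 1 library (−0.76 to −0.50). The groups have 3 libraries each, so single libraries were not screened as outliers.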

How the results depend on the processing

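Over the alternatives, 1398 log2 fold changes of the members were recomputed. None of the called values changed sign, 36 moved by more than the spread between replicates, 38 calls were lost and 10 gained. At an adjusted p under 0.05, SKG against WT in NKT2 called 1 member instead of 2, with Plxnc1 lost, and the Sema4d difference between NKT17 and NKT2 (−0.73) was no longer called. With a mean of at least 50 counts, which removes Nrp2 and Plxnd1 from the test, the members called were 1 for SKG against WT in NKT1, 1 in NKT2, 2 for WT NKT1 against NKT17 and 3 for SKG NKT1 against NKT17. Leaving out 1 library gave 1 to 2 members called for SKG against WT in NKT1, 1 to 2 in NKT2, and 1 to 4 other listed genes in NKT1. The shares of all genes called in these alternatives are not given here, and nothing is read from these counts. Some of the numbers in the library titles occurred in only 1 genotype, so they were partly confounded with genotype. Over the 18 pairs of a WT and an SKG library with the same number, deviations from the group means correlated at −0.151 to 0.09 (median 0.0036). Those means include libraries whose number the other genotype lacks. The correlations therefore cannot decide whether the numbers pair WT with SKG libraries. Within a genotype the 18 pairs ran from −0.0612 to 0.351 (median 0.17), with 12 over 0.1, so not every pair deviated together. A replicate block on that number lost 1 member call, Sema4b in SKG against WT NKT17 (log2 fold change 0.50). A replicate block on the number within each genotype, chosen after seeing the data and possible for the subset comparisons and the differences between effects, changed no member call. Plxnd1 and Nrp2 values in groups with few counts depend most on the settings: Nrp2 in SKG against WT NKT17 ranged from −4.03 to 0.38. RLE and upper-quartile scaling changed no member call. Depth limits Sema7a in all groups, Nrp2 in NKT17 and Plxnd1 outside NKT17.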
